A study of Mus musculus with 6 samples.

Results

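The Wnt pathway genes described here are the 37 rows of the deposited expression table, out of 14004 listed genes, whose symbol begins with Wnt and a digit, Fzd, Sfrp, Dkk, Rspo, Axin, Tcf7 or Dvl, or is Lrp5, Lrp6 or Ctnnb1. They fall into 12 ligands (Wnt and R-spondin genes), 11 receptors (Frizzled genes with the co-receptors Lrp5 and Lrp6), 5 secreted inhibitors (Sfrp and Dkk genes) and 9 downstream factors (Dvl, Axin and Tcf7 genes with Ctnnb1). Lef1, Fzd10, Sfrp4, Dkk1, Dkk4, Rspo4 and 10 further Wnt genes (Wnt1, Wnt3, Wnt3a, Wnt6, Wnt7a, Wnt7b, Wnt8a, Wnt8b, Wnt10a and Wnt10b) had no row in the expression table. Lef1 was part of the same choice of genes. RNA came from heart ventricle of C57BL6 mice on postnatal day 1, with 3 libraries from Rbpms KO mice and 3 from WT mice. Rbpms encodes an RNA-binding protein that acts in splicing, and the title of the series links it to noncompaction cardiomyopathy and to cytokinesis of cardiomyocytes. The sources used here do not give how the knockout was made, the sex of the mice or the number of animals per library. The p-values therefore measure the spread between these libraries, which the labels call biological replicates.

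Wnt ligands are secreted lipid-modified proteins that bind Frizzled receptors. In the beta-catenin branch, Lrp5 or Lrp6 is engaged as well, Dishevelled proteins (Dvl genes) pass the signal on, and a destruction complex built on Axin releases beta-catenin (Ctnnb1), which then acts on DNA through factors of the Tcf/Lef family. Sfrp proteins bind Wnt ligands outside the cell, classical Dkk proteins bind Lrp5 and Lrp6, and R-spondins raise the amount of receptor at the surface through Lgr receptors. In the heart the pathway is known for timed roles in the growth of precursor cells, in outflow tract and valve formation and in cardiomyocyte proliferation.

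Values are RPKM, the reads of a gene scaled to its length in kilobases and to 1000000 reads of the library, so levels can be compared between genes. The depth of the libraries is unknown. Genes that reached 0.5 RPKM in 3 or more of the 6 libraries entered the test with limma on log2(RPKM + 0.5), and a gene was called where the p-value adjusted over all 12911 genes tested was below 0.05. Rbpms itself had 0.594, 0.276 and 0.240 RPKM in the KO libraries, against 33.1, 35.7 and 38.1 RPKM in the WT libraries. Its paralog Rbpms2 fell too, to 20.9 ± 3.99 RPKM in KO, against 37.5 ± 2.33 RPKM in WT (SD, n = 3 each, limma adjusted p 0.0127). That call was lost without WT replicate 1 (limma adjusted p 0.0512) or without WT replicate 2 (0.0645). Heart muscle markers were high in all 6 libraries, with Tnnt2 at 887 to 1040 RPKM in KO and 938 to 1165 RPKM in WT. Of the 5 heart muscle markers, 1 was called, Myh6, which was lower in KO. Myh6 had 1215, 1577 and 1093 RPKM in KO and 2079, 2076 and 1898 RPKM in WT (log2 change -0.66, limma adjusted p 0.0362). Markers of airway epithelium summed to 0.361 to 18.0 RPKM in KO and to 541 to 736 RPKM in WT, and all 6 that were tested fell. WT replicates 1 and 2 were the nearest pair of libraries: across 3677 genes the log2 ratio between them had an SD of 0.132, and for the other pairs that SD was 0.244 to 0.496. In bulk tissue, fewer cells of a type and less RNA per cell cannot be told apart.

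Sfrp5 was the only Wnt pathway gene called between the genotypes, and it fell. It passed the filter on low values through the WT libraries alone. The other 31 tested members kept adjusted p-values above the threshold, and 5 members (Wnt9b, Wnt16, Rspo2, Fzd9 and Axin2) did not pass the filter on low values. The share of members called, 1 of 32, stood beside 6.37% of all 12911 genes tested (2.38% called higher and 3.99% called lower in KO). Over all genes 307 were called higher and 515 lower, and 428 higher and 417 lower once each library was rescaled by its median ratio. At an unadjusted p below 0.05 there were 9 of 32 members, beside 23.5% of all genes tested. Of these members 3 were higher in KO (Fzd4, Lrp5 and Fzd5) and 6 lower (Wnt5b, Fzd1, Fzd2, Sfrp5, Dvl3 and Tcf7). Over all genes tested 1205 were higher and 1825 lower at that level. The 9 members became 6 after the rescaling, beside 23.35% of all genes. With a library left out they were 3 to 8, beside 15.1 to 26.08% of all genes. The median log2 change of the tested members was -0.07, and that of all genes tested was -0.03. Member changes ran from -0.77 for Sfrp5 to 0.47 for Fzd5. In the authors' deposited table, 3 of the 37 members had a false discovery rate (FDR) below 0.05, beside 11.1% of its 14004 genes (5.45% higher and 5.64% lower in KO). These were Fzd5 and Lrp5, higher in KO, and Sfrp5, lower in KO.

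**Figure D1:**
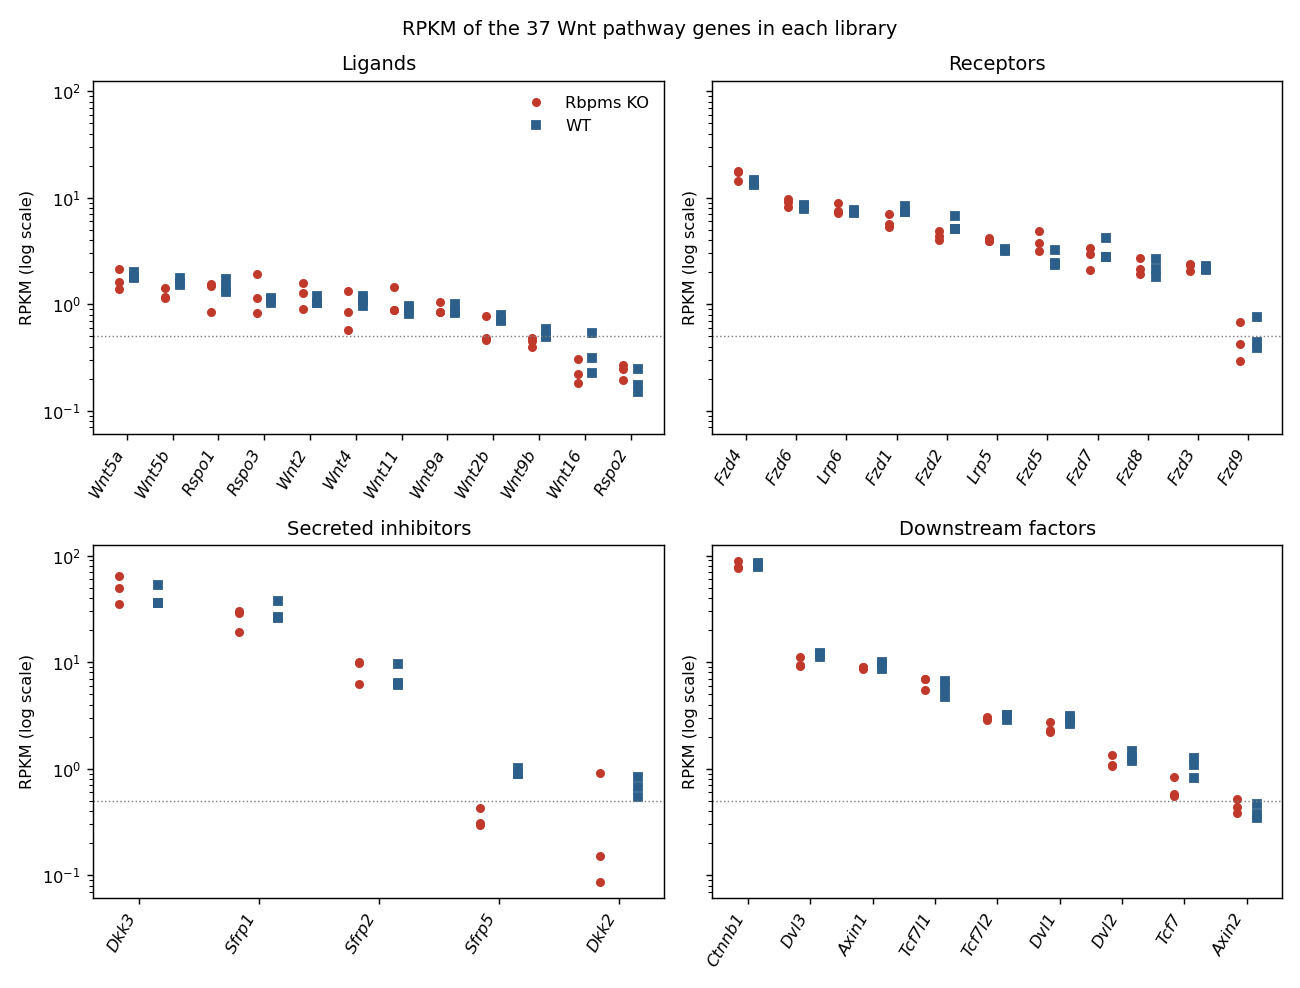
RPKM on a log axis of each of the 37 Wnt pathway genes in the 3 Rbpms KO libraries (circles) and the 3 WT libraries (squares), by role and in order of mean level; the dotted line marks 0.5 RPKM. Ctnnb1 is highest with means of 80.9 RPKM in KO and 81.2 RPKM in WT, and mean ligand levels lie between 0.213 and 1.79 RPKM. The Sfrp5 libraries of the genotypes do not overlap, which follows from its passing the filter through the WT libraries alone.

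In every library the downstream factors summed highest, followed by the secreted inhibitors, the receptors and the ligands. Mean levels over the 6 libraries ran from 0.213 to 1.79 RPKM for the ligands, from 0.4998 to 15.2 RPKM for the receptors, from 0.533 to 45.6 RPKM for the secreted inhibitors and from 0.422 to 81.1 RPKM for the downstream factors. Ctnnb1, the gene of beta-catenin, took 71.2% of the downstream sum in KO and 69.5% in WT. Dkk3 and Sfrp1 together carried most of the inhibitor sum, Dkk3 with 58.4% in KO and 51.6% in WT and Sfrp1 with 30.7% in KO and 37.3% in WT. Fzd4 was the leading receptor, with 27.6% of the receptor sum in KO and 24.4% in WT.

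Summed over a role, the genotypes overlapped in all 4 roles. The ligands summed to 13.4, 10.9 and 9.31 RPKM in the KO libraries and to 11.6, 12.2 and 11.7 RPKM in the WT libraries. The receptors summed to 62.4, 62.7 and 53.7 RPKM in KO and to 54.1, 54.3 and 62.5 RPKM in WT. The secreted inhibitors summed to 106, 85.2 and 64.3 RPKM in KO and to 70.4, 69.6 and 102 RPKM in WT. Their spread was wide within each genotype, with KO replicate 1 and WT replicate 3 at the top. Summed fibroblast markers were 304, 295 and 239 RPKM in KO replicates 1 to 3 and 238, 249 and 334 RPKM in WT replicates 1 to 3. Of these 5 markers 1 was called, Tcf21, with 8.41, 8.44 and 8.28 RPKM in KO and 4.79, 5.80 and 6.20 RPKM in WT (limma adjusted p 0.0221). Tcf21 had a log2 change of 0.55, and Col1a1, Dcn, Dpt and Pdgfra had -0.05, 0.01, 0.14 and 0.18, all uncalled. The part of such cells in the inhibitor sums was not tested.

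**Figure D2:**
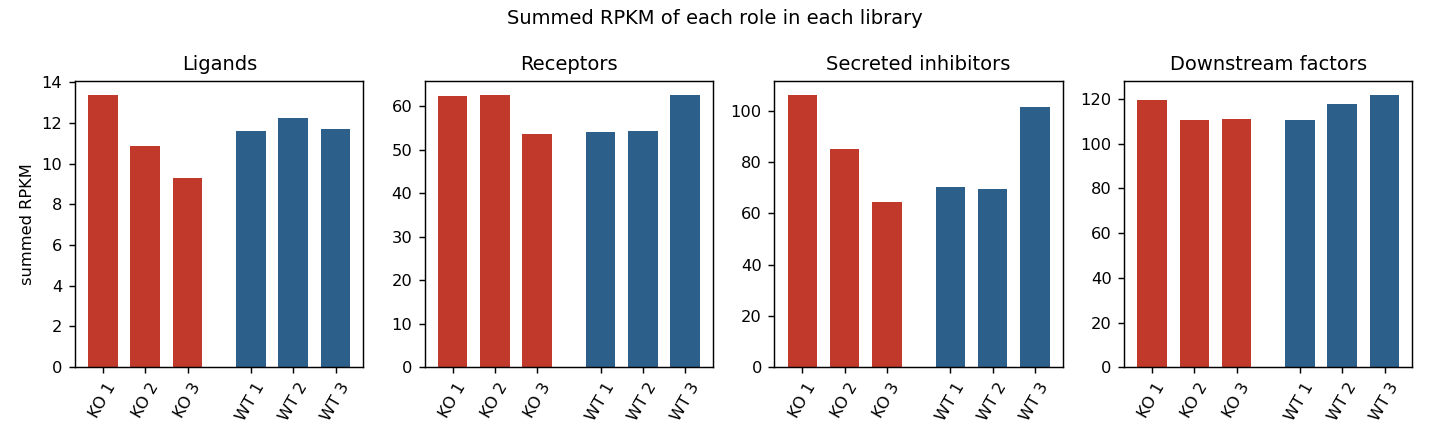
Summed RPKM of the ligands, receptors, secreted inhibitors and downstream factors in each library, Rbpms KO replicates 1 to 3 (KO) left of WT replicates 1 to 3. The bars overlap between genotypes in each role, and the secreted inhibitors vary most, from 64.3 to 106 RPKM in KO and from 69.6 to 102 RPKM in WT.

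None of the 9 tested ligands was called by limma or at an FDR below 0.05 in the authors' deposited table. At an unadjusted limma p below 0.05 there was 1, Wnt5b. Of all genes tested, limma called 6.37%, and 23.5% had an unadjusted p below 0.05. The levels of all 12 ligands were low. Wnt5a, which signals mainly without beta-catenin and acts in outflow tract development, was the most abundant ligand. It had 2.14, 1.61 and 1.40 RPKM in the KO libraries, against 2.03, 1.79 and 1.77 RPKM in the WT libraries, and the groups overlapped (log2 change -0.10, 95% confidence interval -0.43 to 0.22, limma adjusted p 0.701). Its close relative Wnt5b had 1.18, 1.15 and 1.42 RPKM in KO and 1.52, 1.58 and 1.77 RPKM in WT. Each KO value of Wnt5b lay under each WT value, but the change of -0.28 did not pass the adjusted threshold (95% confidence interval -0.54 to -0.02, limma adjusted p 0.186). Over all genes tested, 29.8% had groups without overlap (11.6% higher and 18.2% lower in KO). Among the tested members these were 6 of 32, counting Sfrp5, which passed the filter through the WT libraries alone.

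Rspo1, an R-spondin, had 1.48, 1.54 and 0.841 RPKM in KO and 1.42, 1.74 and 1.31 RPKM in WT, with KO replicate 3 lowest. Wnt4, a ligand of the developing kidney and gonad in mouse, had 1.32, 0.849 and 0.579 RPKM in KO and 1.11, 0.968 and 1.21 RPKM in WT. Wnt2b, a ligand close to Wnt2, had 0.783, 0.482 and 0.461 RPKM in KO and 0.690, 0.791 and 0.711 RPKM in WT. For these 3 genes the KO libraries spread more widely than the WT libraries, and the genotypes overlapped. The log2 changes were -0.18 for Rspo1, -0.20 for Wnt4 and -0.21 for Wnt2b, and the limma adjusted p-values of the 3 ran from 0.424 to 0.603.

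The remaining tested ligands were Rspo3, Wnt2, Wnt11 and Wnt9a, with log2 changes of 0.01 to 0.17. Wnt11, which like Wnt5a is known for outflow tract development, averaged 1.08 ± 0.327 RPKM in KO and 0.883 ± 0.0727 RPKM in WT (SD, n = 3 each). Of the ligands under the filter, Wnt9b averaged 0.446 RPKM in KO and 0.531 RPKM in WT, Wnt16 0.237 RPKM in KO and 0.359 RPKM in WT, and Rspo2 0.236 RPKM in KO and 0.190 RPKM in WT.

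Among the 10 tested receptors none was called by limma. At an unadjusted p below 0.05 there were 3 higher and 2 lower in KO, beside 23.5% of all genes tested. The authors' deposited table called Fzd5 and Lrp5, beside 11.1% of all its genes. Fzd4, a Frizzled of blood vessel development that binds Norrin as well as Wnt ligands, had 17.7, 17.3 and 14.4 RPKM in the KO libraries and 13.6, 13.3 and 14.8 RPKM in the WT libraries. KO replicate 3 lay within the WT range. The log2 change was 0.23 (95% confidence interval 0.01 to 0.46, limma adjusted p 0.196). Endothelial and endocardial markers summed to 197, 233 and 202 RPKM in KO and 149, 151 and 176 RPKM in WT, with Pecam1 and Npr3 called higher in KO. Their part in the Fzd4 values was not tested.

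Fzd5 (chr1:64730558-64737751, GRCm38) had the largest positive change of the members. It had 3.15, 4.89 and 3.77 RPKM in KO and 2.34, 2.45 and 3.24 RPKM in WT, so that WT replicate 3 lay above KO replicate 1. The change of 0.47 (SE 0.168) had a limma adjusted p of 0.137, whereas the authors' deposited table gave it a log2 change of 0.60 and an FDR of 0.0338. The co-receptor Lrp5 (chr19:3584828-3686564), which was chosen for the text after its values were seen, had 3.90, 4.18 and 3.90 RPKM in KO and 3.20, 3.15 and 3.34 RPKM in WT. It was the only tested member with all KO values above all WT values. Its log2 change was 0.27 with a limma adjusted p of 0.113, and the authors' deposited table gave 0.35 and an FDR of 0.0426.

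The related co-receptor Lrp6 was the more abundant of the pair, with 8.99, 7.58 and 7.23 RPKM in KO and 7.34, 7.25 and 7.68 RPKM in WT. Its genotypes overlapped and its log2 change was 0.09 (95% confidence interval -0.14 to 0.31, limma adjusted p 0.642). The ratio of Lrp6 to Lrp5, picked after the values were seen, was 2.31, 1.81 and 1.85 in KO and 2.29, 2.30 and 2.30 in WT.

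Fzd1 and Fzd2 encode Frizzled receptors of the same subgroup as Fzd7. Fzd1 (chr5:4753839-4758035) had 7.04, 5.66 and 5.32 RPKM in KO and 7.39, 7.31 and 8.34 RPKM in WT. Fzd2 had 4.41, 4.90 and 4.04 RPKM in KO and 5.10, 5.09 and 6.76 RPKM in WT. In both genes every KO library lay under every WT library, and neither passed the adjusted threshold (Fzd1 log2 change -0.34, limma adjusted p 0.129; Fzd2 -0.31, limma adjusted p 0.200). Without KO replicate 1, the KO library whose Fzd1 value lay nearest to WT, Fzd1 was called, with a log2 change of -0.45 and a limma adjusted p of 0.0362. In that fit 6.16% of all genes tested were called, so the value is given as a description. Without KO replicate 2 the limma adjusted p of Fzd1 was 0.292. Fzd7 averaged 2.82 ± 0.659 RPKM in KO and 3.25 ± 0.823 RPKM in WT (SD, n = 3 each), with overlap. Fzd6, the second most abundant receptor, which acts in planar cell polarity, had 9.08, 9.75 and 8.11 RPKM in KO and 7.89, 8.31 and 8.60 RPKM in WT. Its change of 0.11 had a limma adjusted p of 0.516, and Fzd3 and Fzd8 had changes of 0.05 and 0.04.

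**Figure D3:**
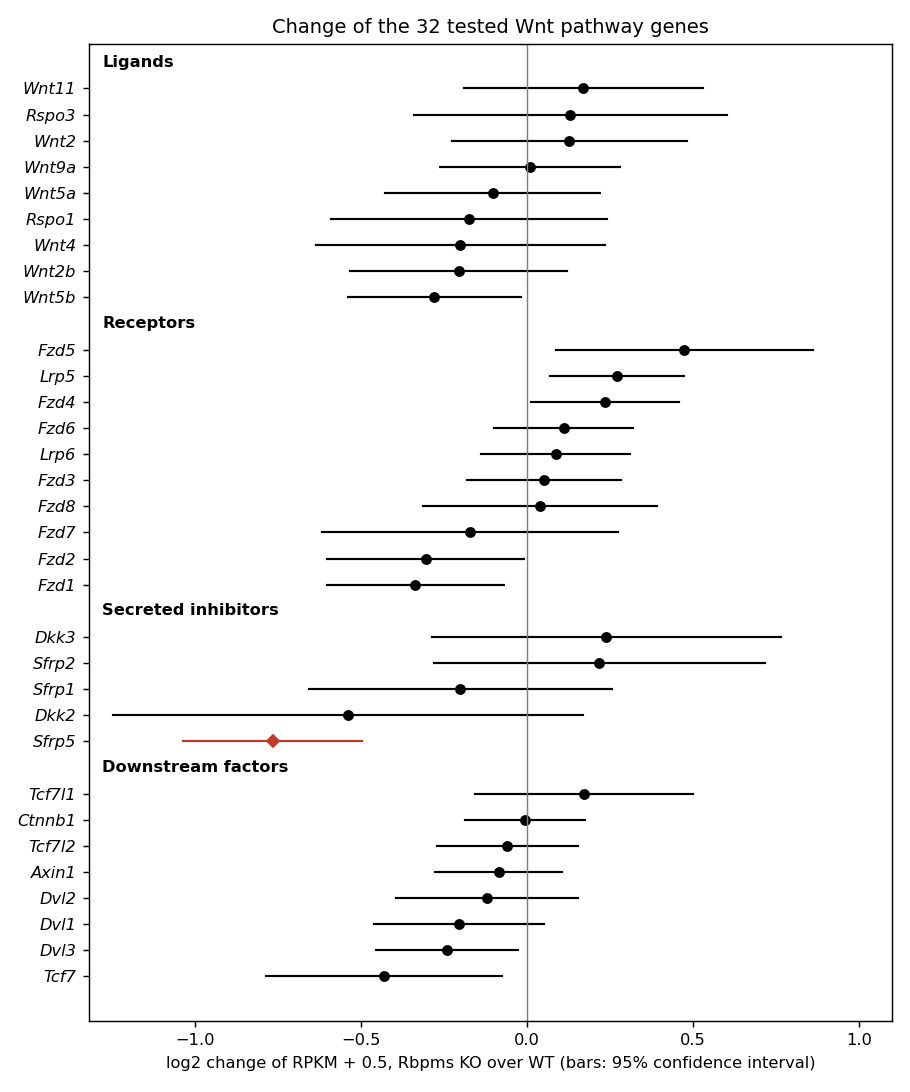
Log2 change of RPKM + 0.5, Rbpms KO over WT, with its 95% confidence interval for each of the 32 tested members, by role. Sfrp5 (diamond) at -0.77 is the only one called, and the intervals of Fzd5, Lrp5 and Fzd4 lie above 0 and those of Wnt5b, Fzd1, Fzd2, Dvl3 and Tcf7 below 0 without a call.

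Of the 5 secreted inhibitors, Sfrp5 fell and the other 4 were not called, while limma called 6.37% of all genes tested. Sfrp5 (chr19:42197971-42202252, GRCm38, minus strand) encodes a secreted Frizzled-related protein that binds Wnt ligands and is known in mouse for limiting Wnt5a. It had 0.295, 0.424 and 0.310 RPKM in the KO libraries, against 0.891, 0.899 and 1.01 RPKM in the WT libraries. All KO values lay below all WT values, and the genotypes averaged 0.343 ± 0.0707 RPKM in KO and 0.933 ± 0.0650 RPKM in WT (SD, n = 3 each), a ratio of 0.368. On the log2(RPKM + 0.5) scale, which understates the change of a low gene, the change was -0.77 (SE 0.117, 95% confidence interval -1.04 to -0.50, limma adjusted p 0.0102). A two-sided exact permutation test over the libraries gave p = 0.1, the smallest that 3 against 3 allows. Because Sfrp5 passed the filter through the WT libraries alone, the full separation and this permutation p were fixed by the filter. The authors' deposited table gave a log2 change of -1.40 and an FDR of 0.000148.

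Sfrp5 was a low gene, ranked 31 of the 37 members by mean level. It passed the filter through the WT libraries alone, and a gene that passes in this way had to differ between the genotypes. With no filter it was called as well (limma adjusted p 0.00525). The call was lost without WT replicate 1 (limma adjusted p 0.0543), without WT replicate 2 (0.0643) or with the mean of these libraries counted as 1 sample (0.0570). Airway epithelium and smooth muscle markers moved in the same direction as Sfrp5. The airway sums given above were 7.94, 18.0 and 0.361 RPKM in KO replicates 1 to 3 and 596, 541 and 736 RPKM in WT replicates 1 to 3. Smooth muscle markers, of which 4 of 5 were called lower, summed to 178, 260 and 193 RPKM in KO and to 852, 891 and 1004 RPKM in WT. Epicardial markers, of which 0 of 5 were called, summed to 37.8 to 58.2 RPKM in KO and 50.6 to 57.9 RPKM in WT. The part of these cells in the fall of Sfrp5 was not tested.

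Dkk2 (chr3:132085292-132180304), a Dkk that binds Lrp5 and Lrp6, separated the KO libraries from each other. It had 0.903, 0.1502 and 0.0857 RPKM in KO and 0.677, 0.548 and 0.832 RPKM in WT. KO replicate 1 was the highest of all 6 libraries and KO replicates 2 and 3 were the lowest. With all libraries the change was -0.54 (95% confidence interval -1.25 to 0.17, limma adjusted p 0.333), and without KO replicate 1 it was -0.94 (limma adjusted p 0.0133), while 6.16% of all genes tested were called without that library. KO replicate 1 is the KO library that went against this change, and without it Dkk2 reached 0.5 RPKM in the WT libraries alone, so the value is given as a description.

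Dkk3, a divergent Dkk that is not a classical inhibitor of Lrp5 and Lrp6, was the most abundant inhibitor gene. It had 65.0, 49.4 and 35.0 RPKM in KO and 35.8, 36.3 and 52.4 RPKM in WT. Sfrp1, a secreted Frizzled-related protein, had 30.2, 29.1 and 19.2 RPKM in KO and 26.7, 25.8 and 37.6 RPKM in WT. Both overlapped between genotypes, with changes of 0.24 for Dkk3 (limma adjusted p 0.577) and -0.20 for Sfrp1 (limma adjusted p 0.586). The ratio of Dkk3 to Sfrp1, picked after the values were seen, was 2.15, 1.70 and 1.82 in KO and 1.34, 1.41 and 1.40 in WT. Sfrp2, known for its expression in fibroblasts, had 9.93, 6.19 and 9.77 RPKM in KO and 6.35, 6.07 and 9.64 RPKM in WT, also with overlap (log2 change 0.22, limma adjusted p 0.592).

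**Figure D4:**
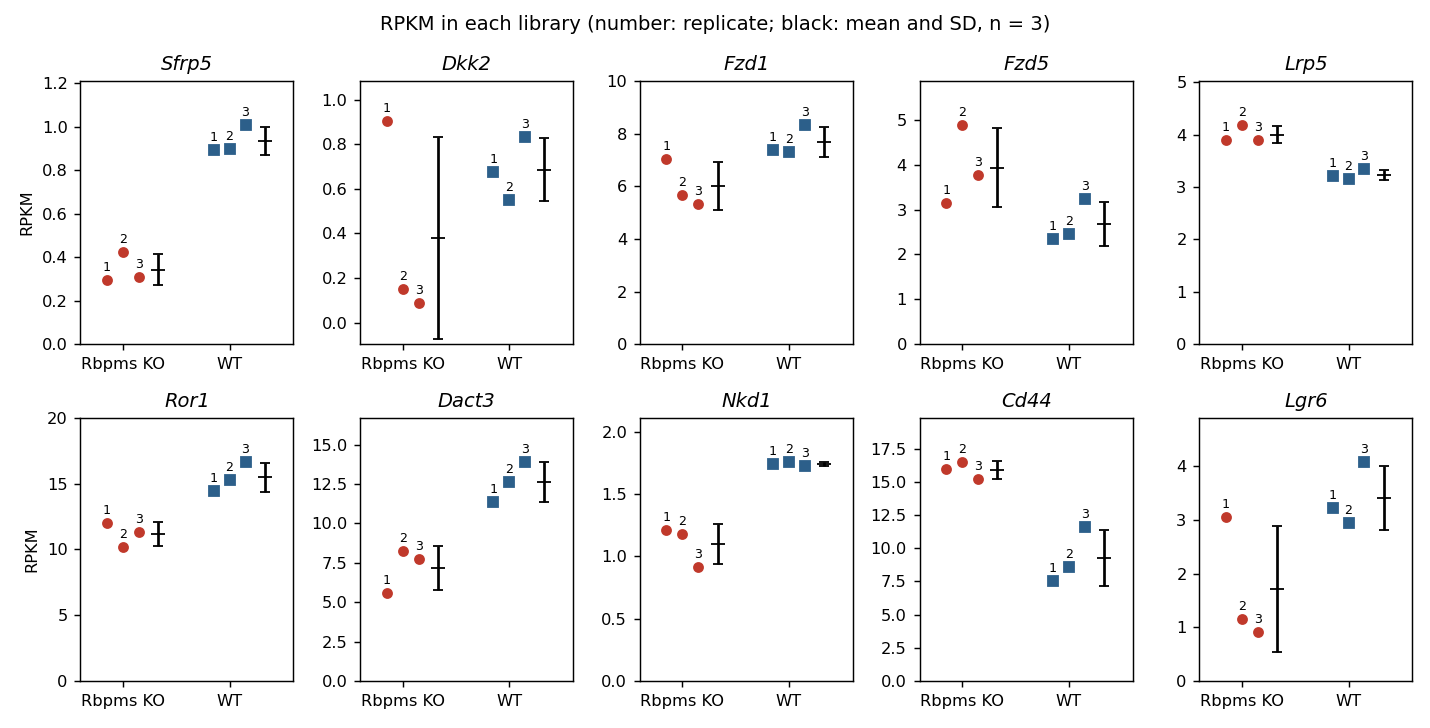
RPKM in each Rbpms KO library (circles, left) and WT library (squares, right) of the members Sfrp5, Dkk2, Fzd1, Fzd5 and Lrp5 and of the pathway genes Ror1, Dact3, Nkd1, Cd44 and Lgr6, with replicate numbers and the mean and SD of 3. Sfrp5, Ror1, Dact3 and Nkd1 are lower and Cd44 higher in all KO libraries, while KO replicate 1 of Dkk2 and Lgr6 lies with or near the WT libraries at 0.903 and 3.07 RPKM.

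None of the 8 tested downstream factors was called by limma or in the authors' deposited table. At an unadjusted limma p below 0.05 there were 2, Dvl3 and Tcf7. Of all genes tested, limma called 6.37%, and 23.5% had an unadjusted p below 0.05. Ctnnb1, the gene of beta-catenin itself, had 88.1, 76.3 and 78.4 RPKM in the KO libraries and 78.0, 81.3 and 84.4 RPKM in the WT libraries. The libraries of both genotypes covered nearly the same range, and the change was -0.01 (95% confidence interval -0.19 to 0.17, limma adjusted p 0.969), or 0.03 after rescaling by median ratios. Axin1, the scaffold of the destruction complex, had 8.997, 8.57 and 8.97 RPKM in KO and 8.66, 9.63 and 10.01 RPKM in WT (log2 change -0.09, limma adjusted p 0.580). Axin2, a scaffold that is also a widely used target gene of beta-catenin signalling, did not pass the filter. It had 0.521, 0.436 and 0.384 RPKM in KO and 0.471, 0.378 and 0.345 RPKM in WT, with overlap, and the authors' deposited table gave it a log2 change of 0.20 and an FDR of 0.725.

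The Dishevelled genes had changes of -0.24 to -0.12. Dvl3, the most abundant of them, had 9.42, 11.1 and 9.23 RPKM in KO and 11.2, 12.0 and 12.2 RPKM in WT. All KO values of Dvl3 lay under the WT values, by a small margin for KO replicate 2, and the change of -0.24 was not called (95% confidence interval -0.46 to -0.03, limma adjusted p 0.167). Dvl1 had 2.72, 2.32 and 2.21 RPKM in KO and 2.62, 3.09 and 2.87 RPKM in WT, with overlap (log2 change -0.21, limma adjusted p 0.310).

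Of the Tcf genes, which bind DNA together with beta-catenin, Tcf7 had the largest change. It had 0.574, 0.552 and 0.829 RPKM in KO and 0.815, 1.08 and 1.27 RPKM in WT, and KO replicate 3 lay just above WT replicate 1. The change of -0.43 was not called (95% confidence interval -0.79 to -0.08, limma adjusted p 0.140). Tcf7l1 averaged 6.42 ± 0.866 RPKM in KO and 5.66 ± 0.973 RPKM in WT, and Tcf7l2 averaged 2.95 ± 0.0833 RPKM in KO and 3.10 ± 0.185 RPKM in WT (SD, n = 3 each). Their log2 changes were 0.17 for Tcf7l1 and -0.06 for Tcf7l2.

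The wider pathway was followed in 7 lists of genes outside the rule above, 109 genes in all, of which 93 were listed and 90 tested. In these lists 1 gene was called higher (Cd44) and 3 were called lower (Ror1, Dact3 and Nkd1), that is 4 of 90 beside 6.37% of all genes tested. Their median log2 change was 0.00. In the authors' deposited table, 13 of the 93 listed genes had an FDR below 0.05, 9 higher and 4 lower in KO, beside the 11.1% of all its genes (5.45% higher and 5.64% lower). Besides these 4 genes they were Adgra2, Kremen1, Apcdd1, Igfbp4, Intu, Tnks, Tle1 and Tbl1xr1, higher in KO, and Nkd2, lower in KO. The lists and their genes were chosen with earlier results of these data known.

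Ror1, a receptor tyrosine kinase for Wnt5a (chr4:100095791-100444765), fell. It had 12.0, 10.2 and 11.3 RPKM in the KO libraries and 14.5, 15.3 and 16.7 RPKM in the WT libraries, a log2 change of -0.45 (SE 0.0913, limma adjusted p 0.0283). Its paralog Ror2 was not called, with 7.11 ± 1.18 RPKM in KO and 6.98 ± 1.74 RPKM in WT (SD, n = 3 each). Of the 10 tested genes in the list of other receptors and ubiquitin ligases, Ror1 was the only one called, beside 6.37% of all genes tested. Lgr6, a receptor for R-spondins, had the largest change of that list and was not called (log2 change -0.94, limma adjusted p 0.123). Lgr6 had 3.07, 1.15 and 0.914 RPKM in KO and 3.22, 2.94 and 4.09 RPKM in WT. As for Dkk2, KO replicate 1 stood apart from the other KO libraries. Without it Lgr6 was called with a change of -1.35 (limma adjusted p 0.00409), while 6.16% of all genes tested were called. KO replicate 1 is the KO library that went against this change, so the value is given as a description. Without KO replicate 2 the limma adjusted p of Lgr6 was 0.291.

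Dact3 and Nkd1, cytoplasmic proteins that bind Dishevelled and are known as antagonists of the pathway, fell as well. Dact3 (chr7:16875317-16887462) had 5.59, 8.23 and 7.73 RPKM in KO and 11.4, 12.7 and 13.9 RPKM in WT (log2 change -0.79, SE 0.145, limma adjusted p 0.0206). Nkd1 (chr8:88521354-88594884) had 1.21, 1.18 and 0.916 RPKM in KO and 1.74, 1.76 and 1.72 RPKM in WT (log2 change -0.49, SE 0.114, limma adjusted p 0.0447). The WT libraries of Nkd1 were nearly equal. These were the 2 called genes among the 19 tested in the list of destruction complex and cytoplasmic factors, beside 6.37% of all genes tested. The median change of that list was 0.00.

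Cd44, the gene of a hyaluronan receptor on the cell surface that is counted among known target genes, rose. Cd44 (chr2:102811141-102901665) had 15.98, 16.5 and 15.2 RPKM in KO and 7.54, 8.59 and 11.6 RPKM in WT (log2 change 0.77, SE 0.143, limma adjusted p 0.0210). Of the 18 tested genes in the list of known target genes, Cd44 was called higher and Nkd1, which is in that list too, was called lower. Over all genes tested 6.37% were called. The median change of that list was -0.08. Myc had 5.28 ± 0.973 RPKM in KO and 4.99 ± 0.1498 RPKM in WT (SD, n = 3 each). Ccnd1, the gene of cyclin D1, had 11.5 ± 0.929 RPKM in KO and 14.0 ± 0.722 RPKM in WT (limma adjusted p 0.104).

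The calls in these lists changed with the libraries used, as did those over all genes. Limma called 0 of the 90 genes without WT replicate 1, without WT replicate 2 and with the mean of both counted as 1 sample, while 17, 15 and 16 genes in these fits had an unadjusted p below 0.05. Over all genes tested the calls in these 3 fits were 1.84%, 1.49% and 1.65%, and an unadjusted p below 0.05 was held by 17.2%, 15.1% and 16.05%. Without WT replicate 3 there were 7 of 90 called, beside 6.72% of all genes tested, and without KO replicate 2 there was 1, beside 3.37%. Ror1 and Nkd1 lost the call in 5 of the 6 fits that left out a library, the exception being the fit without KO replicate 1.

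In the other 4 lists limma called no gene. Among 7 tested further extracellular inhibitors the log2 changes ran from 0.03 to 0.68 with a median of 0.34, and 3 had an unadjusted p below 0.05, beside the 23.5% of all genes tested. These were Kremen1, Apcdd1 and Igfbp4, and the authors' deposited table gave them FDR values of 0.0306, 0.0498 and 0.0448, higher in KO. Valve mesenchyme markers summed to 287, 252 and 240 RPKM in KO and 176, 179 and 210 RPKM in WT. Most of these sums was Postn, which averaged 248 RPKM in KO and 178 RPKM in WT and was the only 1 of the 5 markers called. Scx and Sox9 had log2 changes of 0.60 and 0.21, and Hapln1 and Cthrc1 had -0.41 and -0.02, all uncalled. The endothelial and endocardial sums given above were likewise higher in all KO libraries. The part of valve, endothelial and endocardial cells in the inhibitor values was not tested. Sost, the gene of sclerostin, had the largest change of them, with 8.36, 6.65 and 3.22 RPKM in KO and 2.03, 1.97 and 8.76 RPKM in WT, and WT replicate 3 stood above all KO libraries (limma adjusted p 0.479). Of the 8 tested genes of Wnt secretion, 2 had an unadjusted p below 0.05. Among them Porcn, the enzyme that adds the lipid to Wnt ligands, had 0.762, 0.611 and 0.523 RPKM in KO and 0.788, 1.02 and 1.35 RPKM in WT (limma adjusted p 0.141). Wls, the carrier of Wnt ligands to the surface, had 24.6 ± 1.63 RPKM in KO and 24.5 ± 1.48 RPKM in WT (SD, n = 3 each). Of 11 tested planar cell polarity genes, 1 had an unadjusted p below 0.05, and this gene, Intu, had 1.71, 1.69 and 1.69 RPKM in KO and 1.29, 1.24 and 1.22 RPKM in WT (limma adjusted p 0.0874). Of 20 tested nuclear cofactors, 3 higher and 2 lower in KO had an unadjusted p below 0.05, and the co-repressor Tle1 had 4.45, 2.64 and 2.51 RPKM in KO and 1.45, 1.53 and 2.21 RPKM in WT (limma adjusted p 0.0932). In both Intu and Tle1 all KO values lay above all WT values. The authors' deposited table gave Intu an FDR of 0.0156, Tle1 an FDR of 0.00254 and Tbl1xr1, another nuclear cofactor, an FDR of 0.0113, all higher in KO.

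The authors' deposited splicing tables held 62 events in 16 pathway genes, Lef1 included, namely 47 skipped exons, 6 retained introns, 4 alternative 3' splice sites, 3 pairs of mutually exclusive exons and 2 alternative 5' splice sites. Tcf7l2 had 15 of them and Fzd6 had 10. The tables compare set 1 with set 2, of 3 libraries each, without naming their genotypes, so no genotype is given here. No event in a pathway gene reached an FDR below 0.05 in the authors' deposited tables, where 1.35% of 39201 events did (1.36% of skipped exons, 1.27% of retained introns, 0.941% of alternative 3' splice sites, 1.78% of mutually exclusive exons and 1.1% of alternative 5' splice sites), and 61 of the 62 had an FDR of 1. At an unadjusted p below 0.05 there was 1 event. The share of all 39201 events below that level was not counted. The event is described because it had the lowest FDR of the 62.

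That event was a 51-base exon of Tcf7l2, a gene known for many alternative exons near its end. Its sequence is shown with those of the other short exons of Tcf7l2, Tcf7l1 and Axin1 that counted as variable by the rule given below. These genes were picked by name, and each exon shown holds CAC. An 84-base exon of Dkk3 and exons of Fzd6 and Lrp6 met that rule too, but they are not shown and their CAC content is not given. Tcf7l2 exons of 49, 73 and 75 bases did not meet that rule and are not shown. Those of 49 and 73 bases do not keep the reading frame, and the 49-base exon holds no CAC. Nor does the 73-base exon chr19:55925977-55926049, which was included at 0.559 to 0.848 in set 1 and 0.575 to 0.792 in set 2 (upstream exon end 55924580, at least 7 reads per library). The exons shown lie whole within annotated coding sequence. Their lengths are multiples of 3 bases, so that inclusion keeps the reading frame. Sequences are from GENCODE mouse release 21 (GRCm38), 5′ to 3′ on the transcript strand, and capitals mark CAC, the core of the motif that Rbpms is known to bind.
Tcf7l2, 51 bases, chr19:55924530-55924580, plus strand: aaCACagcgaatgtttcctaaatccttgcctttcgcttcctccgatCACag
Tcf7l2, 69 bases, chr19:55755014-55755082, plus strand: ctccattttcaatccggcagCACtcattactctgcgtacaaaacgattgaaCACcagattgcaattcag
Tcf7l2, 87 bases, chr19:55912559-55912645, plus strand: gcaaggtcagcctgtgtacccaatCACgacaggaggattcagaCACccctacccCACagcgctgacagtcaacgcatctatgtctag
Tcf7l1, 42 bases, chr6:72648801-72648842, minus strand: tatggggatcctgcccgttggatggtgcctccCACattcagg
Axin1, 108 bases, chr17:26192516-26192623, plus strand: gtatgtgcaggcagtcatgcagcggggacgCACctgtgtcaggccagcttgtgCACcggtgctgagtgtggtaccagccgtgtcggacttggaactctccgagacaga

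CAC was searched on the transcript strand alone. It occurs in 50.3% of the 143 exons of 51 bases in the skipped exon table, in 60.4% of the 182 exons of 69 bases, in 71.4% of the 199 exons of 87 bases, in 40.7% of the 86 exons of 42 bases and in 75.2% of the 214 exons of 108 bases. A match is a description of these letters and not a binding site.

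The 51-base exon of Tcf7l2 was included at levels of 0.817, 0.614 and 0.686 in set 1 and 0.85, 1.0 and 0.799 in set 2 when measured against a downstream exon that starts at position 55925977. The difference was -0.177 (set 1 minus set 2), and the FDR of the authors' deposited table was 0.365. In set 1 the exon had 30, 24 and 11 inclusion reads and 4, 9 and 3 skipping reads, and in set 2 it had 19, 21 and 20 inclusion reads and 2, 0 and 3 skipping reads. The sets overlapped, since the highest library of set 1 lay above the lowest of set 2. The same exon measured against a downstream exon that starts at position 55931434 had a difference of the opposite sign, 0.093, with levels of 0.932, 1.0 and 1.0 in set 1 and 1.0, 0.905 and 0.749 in set 2.

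**Figure D5:**
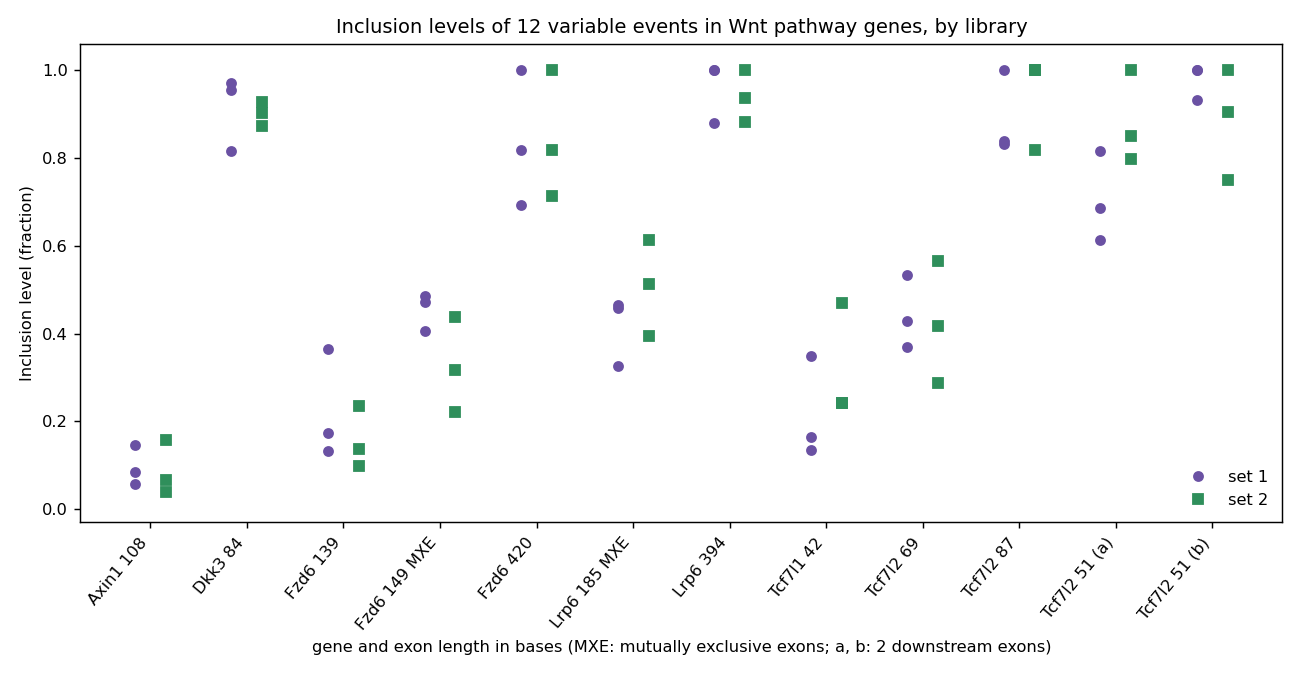
Inclusion level, as a fraction, of the 12 variable events in Wnt pathway genes in each library of set 1 (circles) and set 2 (squares), named by gene and exon length. The sets overlap in all 12 events, from the Axin1 exon near 0.09 to the Lrp6 exon of 394 bases near 0.95.

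Counting an event as variable where the mean inclusion over the 6 libraries was between 0.05 and 0.95 and each library had at least 10 reads gave 12 events in 6 pathway genes (Axin1, Dkk3, Fzd6, Lrp6, Tcf7l1 and Tcf7l2). The sets overlapped in all 12. The share of overlapping sets among all deposited events that meet this rule was not counted, so the overlap is given as a description. The 69-base exon of Tcf7l2 was included at 0.429, 0.37 and 0.534 in set 1 and 0.288, 0.417 and 0.566 in set 2. The 42-base exon of Tcf7l1 was included at 0.165, 0.349 and 0.134 in set 1 and 0.243, 0.469 and 0.243 in set 2. Both exons were thus in part skipped in every library. The 108-base exon of Axin1 was mostly skipped, at 0.147, 0.084 and 0.057 in set 1 and 0.158, 0.067 and 0.039 in set 2, with 33 to 53 reads per library. Dkk3 had the deepest coverage of the 12, with 147 to 321 reads per library, and its 84-base exon was included at 0.956, 0.97 and 0.815 in set 1 and 0.928, 0.902 and 0.873 in set 2. In Fzd6 an exon of 139 bases was included at 0.132 to 0.364 in set 1 and at 0.098 to 0.234 in set 2.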

How the data were processed

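Stranded libraries of polyadenylated RNA from heart ventricle were grouped by their titles. The authors deposited RPKM for 14004 genes with gene lengths in kilobases, a table of their own comparison with log2 fold changes and log2 mean abundances, a likelihood ratio score, p-values and FDR, and splicing tables with inclusion levels, ratios of length-corrected junction counts, per the file headers. Names given per the submitters' processing notes were FastQC 0.11.4, featureCounts 1.6.0, edgeR 3.30.1 and the builds GRCm38 and mm10; the aligner is not given in the sources used here. RPKM multiplied by gene length summed to 1000000 in each library. Of the 300 lowest values per library, 40.3 to 82.7% lay within 0.1 of a whole multiple of the best step, so reads were not recovered, no count test was run, and the depth behind the values is unknown.

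Log2(RPKM + 0.5) was compared by limma 3.58.1 (R 4.3.3; trend on the mean; Benjamini-Hochberg adjustment) over 12911 genes at or above 0.5 RPKM in at least 3 libraries; the fit was tested on simulated data. The members and lists were chosen with earlier results of these data known. Every library value is given for members called, for the 3 most abundant and the 3 most changed tested members of each role, and for pathway genes called or most changed in their list. The fold changes in the authors' table are KO over WT, read from the deposited sheets of genes higher in each genotype. Read counts whose commas a spreadsheet had dropped were cut where only 1 reading gave the deposited inclusion level; 1 event of the pathway genes could not be read. Positions and exon sequences are from GENCODE mouse release 21; 24628 of 24641 skipped exons matched. Alternatives were the pseudocount, the filter, rescaling by median ratios, leaving out each library, the mean of WT replicates 1 and 2 as 1 sample, a replicate block, no trend and a threshold of 0.01.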

Additional observations from a re-analysis of the deposited data

How the results depend on the processing

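The call of 1 member (Sfrp5) became 0 with the filter at 1 RPKM, where Sfrp5 was not tested, 0 with the mean of WT replicates 1 and 2 as 1 sample, and 0 at an adjusted p below 0.01, and ran from 0 to 3 when a library was left out. The 4 calls among other pathway genes became 0 with that WT mean and 0 at an adjusted p below 0.01, and ran from 0 to 7 with a library left out. Over all genes, 822 calls became 213 with the WT mean, 220 at an adjusted p below 0.01 and 192 to 868 with a library left out. With the replicate number as a block, 545 of all genes, 1 member (Sfrp5, limma adjusted p 0.0335) and 3 other pathway genes were called. There Ror1 and Nkd1 lost their calls and Nkd2 gained one. No label says what a replicate number marks. Same-numbered deviations correlated at 0.213, -0.271 and 0.122. These values cannot decide whether the numbers pair libraries, since WT replicates 1 and 2 lay close together and deviated alike. Rescaling by median ratios moved the share of called genes that were higher in KO to 50.7%, against 37.3%, and turned the uncalled change of Ctnnb1 to 0.032. Uncalled changes also turned sign with a library left out, which gave Ctnnb1 -0.069 to 0.033, Fzd7 -0.297 to 0.0012, Fzd8 -0.072 to 0.157, Lrp6 -0.0027 to 0.145, Myc -0.047 to 0.199, Ror2 -0.124 to 0.211, Rspo1 -0.283 to 0.0185, Rspo3 -0.107 to 0.323, Sfrp1 -0.317 to 0.0026, Wls -0.048 to 0.051, Wnt2 -0.0043 to 0.273, Wnt5a -0.238 to 0.0021 and Wnt9a -0.061 to 0.061. With the WT mean, Fzd8 gave -0.020, Ror2 -0.047 and Wls -0.021; the cause was not tested. Over the alternatives, 54 genes (the tested members, the pathway genes named in the text, Rbpms and Rbpms2) gave 688 values that kept their direction and side of the threshold, 28 that lost a call, 8 that gained one and 25 that turned sign. Depth is unknown, so the precision of genes under 1 RPKM rests on the spread of 3 libraries.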
